A study of Homo sapiens with 2 samples.

Results

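The genes described here are 10 secreted or surface proteins of the acute-phase response and of epithelial antimicrobial defence: LCN2, SAA1, SAA2, S100A8, S100A9, PI3, SLPI, DEFB1, PIGR and CP. They were chosen by symbol, and all 10 were found among the 56638 genes of the deposited tables. RNA was sequenced from TFK1, an established human cholangiocarcinoma line derived from bile duct epithelium, after lentiviral delivery of a short hairpin RNA and selection of the infected cells. One library came from cells with an shRNA against MBD2 (shMBD2), a reader of methylated CpG sites in DNA, and the other from cells with a negative-control shRNA (shNC); both groups carry a vector and differ in the hairpin, and the labels do not say which MBD2 hairpin was sequenced. With a single library on each side there is no replicate check for any value, and the 95% intervals (Clopper-Pearson, exact) allow for counting error alone.

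Acute-phase proteins are made in large amounts when inflammatory cytokines such as IL-6 and IL-1 reach the liver, and many epithelia, bile ducts among them, make a related set at their own surface. LCN2 binds bacterial siderophores and so keeps iron from microbes. SAA1 and SAA2 are lipoprotein-bound serum amyloid A proteins, S100A8 and S100A9 form the metal-binding heterodimer calprotectin, and DEFB1 is a cationic antimicrobial peptide. PI3 (elafin) and SLPI inhibit neutrophil proteases, PIGR carries polymeric immunoglobulin across epithelia into secretions such as bile, and CP (ceruloplasmin) is a copper-carrying ferroxidase of plasma. Several of these genes are textbook targets of NF-kB, C/EBP and STAT3.

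The sequences needed to read these data are of 2 kinds: a promoter of a member with a large difference beside that of a member with almost no reads, and the coding stretch that tells SAA1 from SAA2. RefSeq promoter windows (GRCh38.p14, from 250 bases before to 50 after a start) were at hand for 4 of the 10 members: LCN2, PIGR, S100A8 and S100A9. The LCN2 window lies at chr9:128149203-128149502 on the + strand, and the capitals mark 11 bases covered by overlapping kB matches. A looser kB pattern matches from position -176 relative to the start on the + strand, and the NF-kB consensus from position -175 on the - strand. The S100A9 window lies at chr1:153357604-153357903 on the + strand and holds no match to either pattern, so it has no capitals.
LCN2: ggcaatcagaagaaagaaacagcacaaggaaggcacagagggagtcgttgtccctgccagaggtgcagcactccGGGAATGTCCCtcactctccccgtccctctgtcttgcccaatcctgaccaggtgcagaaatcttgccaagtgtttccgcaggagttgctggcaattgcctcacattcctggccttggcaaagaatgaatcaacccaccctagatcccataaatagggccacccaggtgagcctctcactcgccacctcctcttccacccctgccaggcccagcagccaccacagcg
S100A9: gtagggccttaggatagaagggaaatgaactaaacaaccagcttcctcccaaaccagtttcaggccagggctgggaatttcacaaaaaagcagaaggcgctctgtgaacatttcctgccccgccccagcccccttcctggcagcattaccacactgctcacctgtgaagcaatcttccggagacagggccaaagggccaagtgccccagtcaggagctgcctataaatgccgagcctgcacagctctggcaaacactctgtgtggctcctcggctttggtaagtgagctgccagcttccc
The NF-kB consensus was found in 11.3% of the 35116 promoters of the table, on either strand. A looser kB pattern, GGG and CC with any 5 bases between them on either strand, includes all matches to the consensus and stood in 58.7% of promoters. It matched once on each strand in LCN2, 3 times in 1 of the S100A8 windows and not at all in S100A9 or PIGR. The 3 S100A8 matches overlap in 1 stretch, as those of LCN2 do. TTGCNNAA, a C/EBP-like pattern, stood 143 bases before the LCN2 start and in 10.5% of all promoters. TATAAA stood 29 bases before the starts of S100A9 and of 1 of the 3 S100A8 windows, and in 11.5% of all promoters. TTCNNNGAA, a STAT-like pattern, stood in 7.66% of promoters and in 0 of the members' windows. MBD2 binds methylated CG, so CG dinucleotides were counted: 6 in the LCN2 window, 5 in S100A9, 5 in PIGR and 2 in each S100A8 window, against a median of 14 (quartiles 4 and 28) over all promoters. These are matches of letters in a window, not measured sites of binding or of methylation.

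SAA1 and SAA2 lie close together on chromosome 11 and are nearly identical. In GENCODE 29, the coding sequences of their lead transcripts, each of 369 bases, differ at 11 positions (97.0% identity), and 10 of the 11 differences fall between coding bases 175 and 324. That stretch is shown with the differing bases in capitals.
SAA1: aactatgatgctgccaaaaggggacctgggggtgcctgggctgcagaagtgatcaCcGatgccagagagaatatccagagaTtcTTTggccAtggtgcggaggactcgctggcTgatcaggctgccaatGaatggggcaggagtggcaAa
SAA2: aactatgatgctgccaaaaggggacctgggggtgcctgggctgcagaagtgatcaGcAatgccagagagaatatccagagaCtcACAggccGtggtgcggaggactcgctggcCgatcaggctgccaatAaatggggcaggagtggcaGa
The longest run of coding bases without a difference is 186 bases. Of the windows of 50 bases in the SAA1 transcript, 34.1% also occur in SAA2, and of windows of 150 bases 7.94% do. How the authors assigned reads that fit both genes is not given in the sources used here, so the split of reads between SAA1 and SAA2 is uncertain and their sum is given too.

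The shMBD2 library held 14728814 counts and the shNC library 14467406. MBD2 itself had 365 counts in shMBD2 and 1013 in shNC (15.6 and 44.6 TPM, a level scaled for transcript length and library size), a log2FC of -1.48 (95% interval -1.66 to -1.31), which goes with the labels. Log2FC is shMBD2 over shNC after TMM scaling with a prior of 0.5 counts, and was computed for 17545 genes, those with 10 or more counts in the sum of the libraries. Of these, 961 (5.48%) had a log2FC above 1 and 890 (5.07%) one below -1, and the median over all was -0.0082. Of the bile duct epithelial markers checked, KRT7 had 11632 and 12975 counts, KRT8 49193 and 62047, and KRT18 6277 and 7981 in shMBD2 and shNC. KRT19 was low, with 119 and 70 counts, and EPCAM had 111 and 162. None of the 11 measured markers of that list passed a log2FC of 1 or -1.

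The shMBD2 library had more reads than the shNC library for each of the 10 members, 3 of which fell below the minimum of 10 counts. SAA1, SAA2, S100A8 and S100A9 had 0 counts in shNC, so any read placed them higher in shMBD2, for S100A8 a single one. Of all 17545 measured genes, 8582 had a log2FC above 0, which is no yardstick for members whose direction was fixed in this way. The members fell into 3 kinds: LCN2 and CP were read well in both libraries and were past 2-fold, SLPI was read well in both and differed less, and the other 7 members had between 0 and 9 counts in shNC. Over all 10 members the counts summed to 5268 in shMBD2 and 1486 in shNC. LCN2, CP and SLPI made up 95.3% of that sum in shMBD2 and 99.2% in shNC. The other 7 members together had 246 counts in shMBD2 and 12 in shNC (66.7 and 4.04 TPM).

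**Figure D1:**
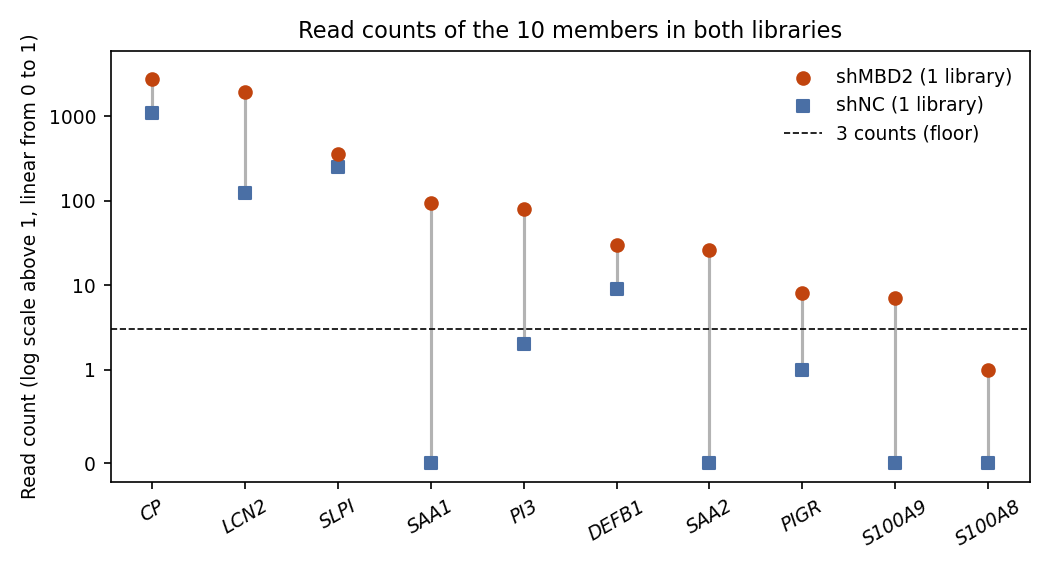
Read counts of each member in the shNC and shMBD2 libraries (counts on a log axis, 1 point per library, 1 library per condition). LCN2 stands at 1920 in shMBD2 and 122 in shNC, while SAA1, SAA2, S100A8 and S100A9 are at 0 in shNC.

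Of the 10 members, 7 passed the minimum of 10 counts, and 6 of these had a log2FC above 1, with none below -1. The median of the 7 was 3.96, or 3.11 with SAA1 and SAA2 set against 3 counts in shNC. The background of 5.48% is a poor yardstick for this count, because SAA1, SAA2 and PI3 passed the minimum only through shMBD2 and could hardly have come out otherwise. DEFB1, with 9 counts in shNC, was also short of the minimum in shNC alone. Among genes with at least 10 counts in shNC alone, 345 of 15587 (2.21%) had a log2FC above 1. LCN2, CP and SLPI met that condition, and 2 of these 3 were above 1. The sequenced material was bulk RNA, in which more cells that express a gene and more RNA per expressing cell cannot be told apart.

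LCN2 (ENSG00000148346, chromosome 9, 130911350 to 130915734, + strand; here and below the position is as the tables give it, with no build named) had 1920 counts in shMBD2 and 122 in shNC. Its level was 303 TPM in shMBD2 and 19.7 TPM in shNC. The ratio was 15.6-fold (13 to 18.9), a log2FC of 3.96 (3.70 to 4.24). This siderophore-binding lipocalin had the largest difference of the members that were well read in both libraries, and its log2FC ranked 14 among the 10917 well-read genes (100 counts or more in the library where they were higher). By TPM, LCN2 was gene number 6894 of the shNC library and number 365 of the shMBD2 library.

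CP (ENSG00000047457, chromosome 3, 148880197 to 148939842, - strand) had 2739 counts in shMBD2 and 1103 in shNC, the most counts of any member in both. Its level was 102 TPM in shMBD2 and 42.3 TPM in shNC, a ratio of 2.47-fold (2.30 to 2.65) and a log2FC of 1.30 (1.20 to 1.41). CP overlaps HPS3, which lies on the opposite strand and had 1137 and 1000 counts (log2FC 0.18), and whether the counting used strand is not given in the sources used here. Ceruloplasmin thus lay past the 2-fold line over its whole counting interval, at rank 114 of the 10917 well-read genes.

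SLPI (ENSG00000124107, chromosome 20, 43880880 to 43883205, - strand) had 363 counts in shMBD2 and 249 in shNC. Its level was 107 TPM in shMBD2 and 75 TPM in shNC, a ratio of 1.45-fold (1.23 to 1.71) and a log2FC of 0.53 (0.30 to 0.77). This protease inhibitor was the member with the smallest ratio, and its interval lies wholly below a log2FC of 1.

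The order of these 3 levels was different in the 2 libraries. In shNC, SLPI at 75 TPM (exact Poisson interval 65.9 to 84.9) stood above CP at 42.3 (39.9 to 44.9), and CP above LCN2 at 19.7 (16.4 to 23.6). In shMBD2, LCN2 at 303 TPM (289 to 317) stood highest, while SLPI at 107 (95.8 to 118) and CP at 102 (98.6 to 106) could not be separated by counting error. The TPM ratio of LCN2 to CP was 0.466 in shNC and 2.96 in shMBD2, and that of LCN2 to SLPI was 0.263 and 2.84. LCN2 was therefore the lowest of the 3 in shNC and the highest in shMBD2.

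PI3 (ENSG00000124102, chromosome 20, 43803517 to 43805185, + strand), the gene of elafin, had 80 counts in shMBD2 and 2 in shNC. Its level was 24.2 TPM in shMBD2 and 0.622 TPM in shNC, a ratio of 39.8-fold whose counting interval runs from 10.7 to 334. PI3 and SLPI belong to the same WAP domain family, their starts lie 79.7 kb apart, and their transcripts share 0 windows of 50 bases. The ratios of these 2 neighbouring inhibitors lie far apart, with intervals that do not overlap. Of all genes, 6 had at most 3 counts in shNC and at least the 80 of PI3 in shMBD2, and 0 had the reverse. PI3 is among the 6 by construction, as the cut is its own count.

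SAA1 (ENSG00000173432, chromosome 11, 18287721 to 18291524, + strand) had 94 counts in shMBD2 and 0 in shNC. Its level was 24.4 TPM in shMBD2, and the 3 counts that a reading of 0 allows would be 0.797 TPM in shNC, so SAA1 was at least 31.1-fold higher with shNC set at that floor. The counting interval, which also takes in the error of the 94 counts, starts at 24.8-fold. SAA2 (ENSG00000134339, chromosome 11, 18260770 to 18270190, - strand) had 26 counts in shMBD2 and 0 in shNC, or 4.45 TPM, and was at least 8.61-fold higher against 3 counts, with an interval that starts at 6.52-fold. Summed, the pair had 120 counts in shMBD2 and 0 in shNC, at least 39.8-fold higher against 3 counts, with an interval of log2 that starts at 4.99. Both acute-phase apolipoproteins were thus read in shMBD2 and not detected at this depth in shNC. With the cut set at the count of SAA1, 2 genes, SAA1 among them, had 0 counts in shNC and at least 94 in shMBD2. With the cut at that of SAA2, 10 had 0 and at least 26, and 0 genes had the reverse at either level. SAA1 and SAA2 meet these cuts by construction, so the numbers are a description only. SAA4, the constitutive family member beside them, had 1 count in each library, and the SAA2-SAA4 readthrough, which overlaps SAA2 on the same strand, had 0 in both.

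DEFB1 (ENSG00000164825, chromosome 8, 6728097 to 6735544, - strand), beta-defensin 1, had 30 counts in shMBD2 and 9 in shNC. Its level was 11 TPM in shMBD2 and 3.38 TPM in shNC, a ratio of 3.31-fold (1.53 to 7.93) and a log2FC of 1.67 (0.62 to 2.99). The interval reaches below a log2FC of 1, so at this depth a difference under 2-fold remains possible. A gene on the opposite strand that overlaps it, GS1-24F4.2, had 4 and 1 counts.

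The other 3 members were at the edge of detection. S100A9 (ENSG00000163220, chromosome 1, 153330330 to 153333503, + strand) had 7 counts in shMBD2 and 0 in shNC, at least 2.32-fold higher with shNC set at 3 counts, while the counting interval, which takes in the error of the 7 counts, starts at 1.43-fold. S100A8 (ENSG00000143546, chromosome 1, 153362508 to 153363664, - strand) had 1 count in shMBD2 and 0 in shNC, from which no ratio is given. These 2 genes encode the subunits of calprotectin, so the heterodimer's transcripts were close to the limit of detection in both libraries. PIGR (ENSG00000162896, chromosome 1, 207101863 to 207119811, - strand) had 8 counts in shMBD2 and 1 in shNC, a ratio of 7.95 with an interval of 1.07 to 353. In TPM these members stood at 2.12 (S100A9), 0.244 (S100A8) and 0.327 (PIGR) in shMBD2, far below LCN2.

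**Figure D2:**
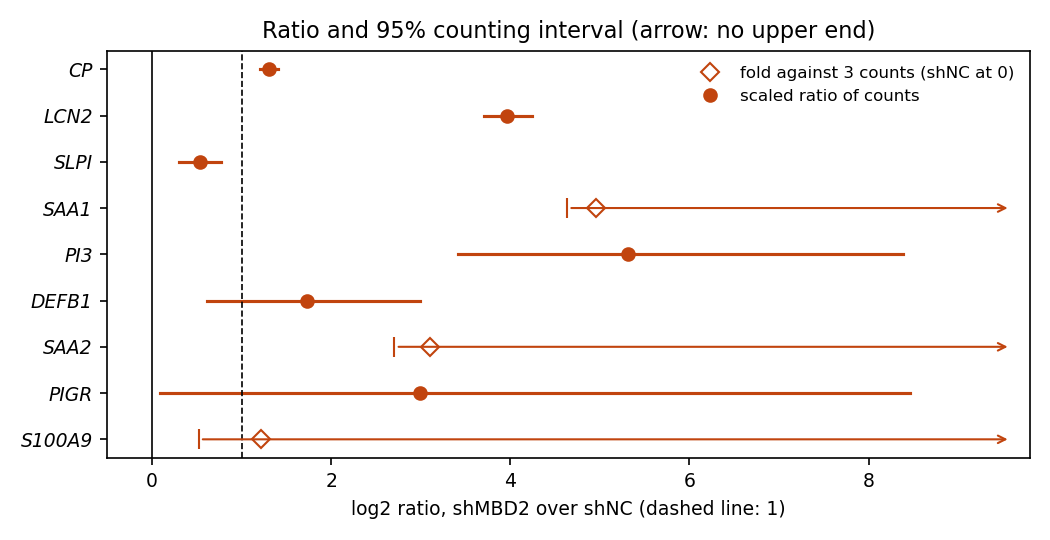
Ratio of shMBD2 over shNC for each member except S100A8, on a log2 axis, with its 95% counting interval (filled circles, scaled ratio of counts; open diamonds, lower bound against 3 counts where shNC is at 0; arrows, no upper end). The intervals of LCN2, CP, SAA1, SAA2 and PI3 lie wholly above the dashed line at 1, that of SLPI lies below it, and those of DEFB1, PIGR and S100A9 cross it.

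Calprotectin's relatives in the S100 family of calcium-binding proteins did not stand with the members. Of the 17 other S100 genes listed, 10 were measured, all with 10 counts or more in shNC. Of these, 0 had a log2FC above 1 (2.21% over all genes with 10 counts or more in shNC) and 1 had one below -1 (5.07% over all measured genes). The 1 below was S100A1, with 3 counts in shMBD2 and 11 in shNC (log2FC -1.72, interval -4.36 to 0.04). The median was -0.14. S100A6 had 4010 and 6002 counts (1042 and 1600 TPM, log2FC -0.59), and S100A10, the annexin A2 partner, had 4688 and 6600 (682 and 985 TPM, log2FC -0.50). S100A4 had 1941 and 2978 counts (log2FC -0.63) and S100A11 2460 and 2463 (log2FC -0.01), while S100A16 was higher in shMBD2, with 1358 and 1070 counts (207 and 168 TPM, log2FC 0.33, interval 0.22 to 0.45). The well-read S100 genes of these cells thus differed in both directions, each by less than 2-fold.

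**Figure D3:**
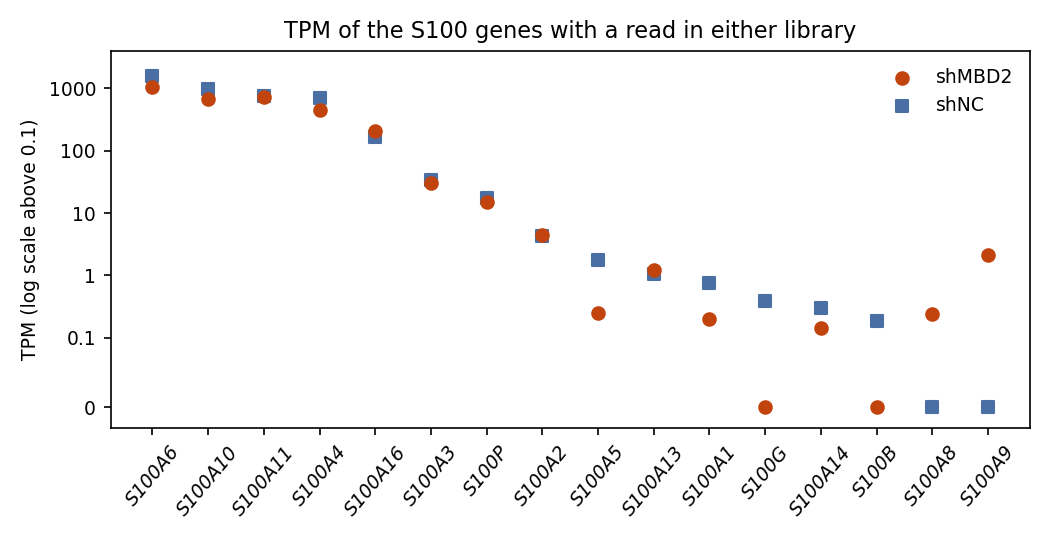
TPM of S100 family genes in shNC and shMBD2 (log axis, 1 library per condition). S100A6, S100A10 and S100A11 stand between 682 and 1600 TPM in both libraries, whereas S100A9 is at 2.12 and S100A8 at 0.244 TPM in shMBD2 and both are at 0 in shNC.

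The other positive acute-phase genes split in both directions. Of 20 listed, 2 had no read in either library, 10 had too few reads, and of the 8 measured 4 had a log2FC above 1 and 4 had one below -1, against 5.48% and 5.07% over all genes. PTX3 and LBP reached the minimum through shMBD2, and of the 6 that had 10 counts or more in shNC, 2 were above 1 (2.21% over all genes). The median of the 8 measured genes was -0.040. The genes of the 3 fibrinogen chains, the best read of the list, were lower in shMBD2: FGB with 473 counts against 1569 (log2FC -1.74), FGG with 281 against 791 (-1.50) and FGA with 628 against 1454 (-1.22). HPX (hemopexin) was low in both, with 5 and 19 counts (log2FC -1.83, interval -3.71 to -0.47). The 4 that were higher had few reads. PTX3 had 28 and 0 counts (at least 9.28-fold against 3 counts, interval from 7.06). SERPINA1 had 39 and 11 (log2FC 1.77, interval 0.82 to 2.93), LBP 23 and 9 (1.30, 0.18 to 2.64) and TNFAIP6 25 and 11 (1.14, 0.10 to 2.35). The intervals of HPX, SERPINA1, LBP and TNFAIP6 thus reach differences under 2-fold. Fibrinogen and the members LCN2, CP and SAA1 thus lay on opposite sides, although all are classed as positive acute-phase genes. CRP had 0 and 2 counts, HP 3 and 0. Of the 6 negative acute-phase genes, 2 were measured, with 0 above 1, 1 below -1 (5.07% over all genes) and a median of -0.64.

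Most antimicrobial genes of epithelia other than the members had few or no reads. Of 37 listed, 21 had 0 reads in both libraries, LYZ (lysozyme) and LTF (lactoferrin) among them, as did 29343 of all 56638 genes. The 6 measured genes had a median of -0.56. NOS2, the inducible nitric oxide synthase, was the 1 gene above 1 (5.48% over all genes), with 25 counts in shMBD2 and 2 in shNC (ratio 12.4, interval 3.10 to 108). It passed the minimum only through shMBD2. Of the 4 genes that had 10 counts or more in shNC, 0 were above 1 (2.21% over all genes). BPIFB1 was the 1 gene below -1 (5.07% over all genes), with 0 counts in shMBD2 and 10 in shNC. The best read of the list, DUOX1 with 29 and 45 counts and ANG with 28 and 44, were past neither line.

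Of 19 other protease inhibitors of epithelia, 14 were measured, 4 were above 1 (5.48% over all genes) and 0 below -1, and the median was 0.50. Of the 14, 13 had a log2FC above 0, as did 8582 of all 17545 genes. SERPINB3 and SERPINB4 passed the minimum only through shMBD2, and of the 11 that had 10 counts or more in shNC, 2 were above 1 (2.21% over all genes). SERPINB8, an intracellular serpin, had 193 counts in shMBD2 and 70 in shNC (log2FC 1.45). SERPINB3 had 15 and 3 counts (ratio 4.97, interval 1.41 to 26.8) and SERPINB4 17 and 0 (at least 5.63-fold against 3 counts, interval from 4.10), and as these are close paralogs their split is uncertain. SERPINA1 was the fourth gene above 1 and also stands in the acute-phase list.

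Receptors, ligands and target proteases of the members differed little. Of 19 listed, 8 were measured, with 1 above 1 (5.48% over all genes), 1 below -1 (5.07%) and a median of 0.040. TLR2, a receptor for SAA, had 13 counts in shMBD2 and 1 in shNC, a ratio of 12.9 with an interval of 1.94 to 549. TLR2 passed the minimum only through shMBD2. Of the 7 genes that had 10 counts or more in shNC, 0 were above 1 (2.21% over all genes). ELANE, the neutrophil elastase that PI3 and SLPI inhibit, had 5 and 11 counts (log2FC -1.07, interval -3.02 to 0.50). SLC22A17, a receptor proposed for LCN2, had 178 and 196 (log2FC -0.15), BSG, a receptor for S100A9, had 8319 and 8157 (0.02), and SCARB1, which takes up SAA-bearing lipoprotein, had 2058 and 1520 (0.43).

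Iron handling, on which LCN2 and CP act, gave 13 measured genes of 18, all with 10 counts or more in shNC. Of these, 1 was above 1 (2.21% over all genes with 10 counts or more in shNC). Below -1 there were 0 (5.07% over all measured genes), and the median was 0.028. The 1 above was ACO1, the cytosolic aconitase that also serves as an iron-regulatory protein, with 2311 counts in shMBD2 and 1000 in shNC (54.1 and 24.0 TPM, log2FC 1.20). The ferritin chains had log2FC values of 0.34 (FTH1, 13620 and 10728 counts) and -0.11 (FTL, 57903 and 62051), and the transferrin receptor TFRC had 0.30. CP and LCN2 thus differed more than the other measured genes of iron handling apart from ACO1, whose log2FC was near that of CP.

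Of 24 regulators known to act upstream of the members, 23 were measured, all with 10 counts or more in shNC. Of the 23, 5 had a log2FC above 1, against 2.21% of all genes with 10 counts or more in shNC and 5.48% of all measured genes. Below -1 there was 1 (5.07% over all measured genes), and the median was 0.25. The 5 were RELB with 473 counts in shMBD2 and 79 in shNC (log2FC 2.57), ZC3H12A with 968 and 309 (1.64), NFKB2 with 1302 and 429 (1.59), NFKBIZ with 544 and 192 (1.49) and NFKB1 with 1071 and 473 (1.17). Of these, RELB, NFKB1 and NFKB2 encode NF-kB subunits, NFKBIZ an inducible co-regulator that LCN2 transcription is known to use, and ZC3H12A an RNase that limits inflammatory transcripts. HNF4A, a liver transcription factor, was the 1 below, with 309 and 631 counts (log2FC -1.04). RELA (log2FC 0.27), CEBPB (0.56) and STAT3 (0.25) were higher by less than 2-fold. IL1R1 (-0.70), ELF3 (-0.62) and CEBPG (-0.27) were lower by less than 2-fold. Of the 23, 13 had a log2FC above 0 and 10 one below 0. Whether these regulators have a part in the members' difference was not tested.

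Most measured genes that lie beside the members had a log2FC between -1 and 1. Of the 16 measured non-member genes whose start lies within 100 kb of a member's, 1 had a log2FC above 1 (5.48% over all genes). Below -1 there were 3 (5.07% over all genes), and the median was 0.018. The 1 above was SDC4 (syndecan 4), 93.9 kb from SLPI, with 1065 counts in shMBD2 and 482 in shNC (log2FC 1.13). The 7 measured neighbours of LCN2 were all between -1 and 1, among them the nearest, C9orf16 at 11.2 kb, with 310 and 223 counts (log2FC 0.47), and PTGES2 with 867 and 675 (0.35). Beside SAA1 and SAA2, HPS5 had 701 and 675 counts and GTF2H1 974 and 877. Around S100A8 and around S100A9, every gene within that distance other than the pair itself was at 0 in both libraries, 10 genes in each case. The 3 below -1 were FAIM3 with 0 counts in shMBD2 and 12 in shNC, C1orf116 with 52 and 106 (both near PIGR) and XKR5 with 1 and 9 (near DEFB1). FAIM3 and XKR5 were thus close to the minimum of 10 counts.

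Several members are hallmark products of other cell types, so markers of those cells were read in the same libraries. Of 14 neutrophil and monocyte markers, 3 had 0 reads in both (MPO, CD52, FCGR3B), PTPRC, TYROBP and CSF3R had 0 in shMBD2 and 1 in shNC, and the whole list summed to 22.7 TPM in shMBD2 and 17.9 in shNC. Of its 5 measured genes, 2 were above 1 (5.48% over all genes), LAPTM5 with 29 and 3 counts and CORO1A with 56 and 19 (log2FC 1.53). LAPTM5 passed the minimum only through shMBD2. Of the 4 that had 10 counts or more in shNC, 1 was above 1 (2.21% over all genes). ELANE was the 1 below -1 (5.07% over all genes), while CD14 had 152 and 126 counts and ITGAM 50 and 38. Of 12 hepatocyte markers, 6 were measured, with 0 above 1 and 3 below -1 (5.07% over all genes). The list summed to 69.9 TPM in shMBD2 and 206 in shNC. ALB had 3 and 0 counts, APOA1 1 and 0, and APOA2, APOC3 and TTR had 0 in both, while FGB and APOH (163 and 388 counts, log2FC -1.26) made up most of the sum. Of 10 keratinocyte markers, 5 were at 0 in both, 2 were measured with none past 1 or -1, and the list summed to 43.7 and 53.7 TPM, nearly all of it KRT10 with 507 and 607 counts. TP63 had 35 and 61 counts, KRT6A 7 and 0, KRT5 3 and 1 and KRT14 0 and 1. Markers of all 3 lists were thus partly absent and partly read, and their part in the members' difference was not tested.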

How the data were processed

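RNA of 1 shMBD2 and 1 shNC library of TFK1 cells was analysed. Read counts in whole numbers were deposited by the authors, and so were TPM. Because the deposited TPM table repeats genes under several rows, its values are treated as a score that summed to 1000000 in each library only after 1 row per gene was kept. The submitters' processing notes name fastp, HISAT2 2.1.0, featureCounts, DESeq 1.18.1 and GRCh38.p13, but the positions in the tables differ from those of GRCh38, so they are printed as the tables give them. The annotation, strand setting and handling of multi-mapping reads are not given in the sources used here.

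Of 63677 rows with an Ensembl identifier, 56638 genes remained, and 46 lines without a gene were dropped. Libraries were scaled with TMM factors (edgeR 4.0.16, R 4.3.3), and log2FC was computed with a prior of 0.5 counts for genes with at least 10 counts over both libraries. Fold ratios carry no prior count. With 1 library per group no test was run, and a gene counts as higher or lower past a log2FC of 1 or -1. Intervals were made with scipy 1.17.1, and a gene at 0 was compared with 3 counts. The steps were tested on simulated data. Depth limits precision to the printed counting intervals.

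The members and lists were chosen with earlier results of these data known. All members, MBD2, list genes with at least 100 counts and a log2FC past 1 or -1 (otherwise the 3 with the most counts) and measured neighbours were to be named. Other genes, such as NOS2, HPX, PTX3, TLR2, SERPINB3 and the markers, were named after their values were seen. Alternatives were DESeq2 1.42.0 size factors, upper-quartile and total-count scaling, prior counts of 2 and 0.1, log2 TPM with 0.1 or 1 added, and filters of 1 and 100 counts.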

Additional observations from a re-analysis of the deposited data

How the results depend on the processing

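No paired analysis was possible because shMBD2 and shNC are single libraries. Across the alternatives run for LCN2, CP, SLPI, DEFB1, PI3 and MBD2, no log2FC changed sign; S100A8, S100A9 and PIGR, below the filter, were not among them. LCN2 ranged from 3.87 to 3.97, CP from 1.26 to 1.31, SLPI from 0.50 to 0.54, DEFB1 from 1.45 to 1.72, PI3 from 3.96 to 5.24 and MBD2 from -1.50 to -1.45. The bound of SAA1 ranged from 30.8-fold to 31.3-fold and that of SAA2 from 8.51-fold to 8.67-fold. The count of members above 1 was 2 in place of 6 with a filter of 100 counts, because only LCN2, CP and SLPI then remained. Over all genes, 374 were above 1 and 340 below -1 on log2 of TPM plus 1, 4523 and 4303 without a filter, and 213 and 127 with a filter of 100 counts. The members' median was 2.45 on log2 of TPM plus 1, 3.20 without a filter and 1.30 with a filter of 100 counts, against 3.96. Ratios of genes with few reads, PI3, DEFB1, PIGR, S100A9 and the SAA genes among them, are limited by depth.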

Other observations

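CG dinucleotides were also counted in the RefSeq promoter windows of all measured genes with an entry in the table (10674 genes). A gene with several windows was given the highest count among them. The median was 22 for the 445 genes with a log2FC above 1, 19 for the 341 genes with one below -1 and 28 for the 9888 genes between. By this measure both sets of differing genes had a lower median than the rest, and the 6 of LCN2 lie below the lower quartile of 8 of the genes above 1. Many differing genes had few reads: with a filter of 100 counts, 213 of the 961 measured genes above 1 and 127 of the 890 below -1 remained. Whether read depth has a part in this was not tested. These are descriptions of promoter windows, and the share of genes without an entry was not examined.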
